A study of Mus musculus with 28 samples.

Results

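The doxorubicin (Doxo) response of p66KO mouse embryonic fibroblasts (MEFs) was read from 6 of the 28 arrays of the series, taken by their titles: 2 arrays of p66KO MEFs incubated with Doxo and 4 arrays of untreated p66KO MEFs. All 45037 probe sets that are not array controls were kept, and 28898 of them carry 1 gene symbol, for 17097 genes. The p66KO (p66ShcKO) cells lack the p66 isoform of Shc1 in every condition. They were primary MEFs of 13.5-day-old embryos, labelled C57Bl/6, at passage 2 (passages up to 5 are also mentioned), and the Doxo group received 0.25 µg/ml for 4 hours. Comparison groups were p66KO MEFs given 400 µM H2O2 for 4 hours (4 arrays), WT MEFs given the same Doxo (2 arrays) and untreated WT MEFs (4 arrays). The other groups were WT MEFs given H2O2, untreated p53KO MEFs and p53KO MEFs given H2O2 (4 arrays each). They were not compared here but entered the estimate of the spread between arrays. The study's methods name sv129 where the labels give C57Bl/6, and the titles call the replicates biological without saying which embryos or cultures they came from, so the spread between arrays may be partly technical.

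Doxo is an anthracycline that intercalates into DNA and traps topoisomerase II on it, leaving double-strand breaks. Such breaks activate the kinases Atm and Chek1 and stabilise p53, which switches on genes that arrest the cycle (Cdkn1a), limit p53 itself (Mdm2) or start cell death (Bbc3, Fas). The p66 protein, the longest product of Shc1, is an adaptor known for a role in mitochondrial oxidant production and in the cellular response to oxidative stress.

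The deposited levels are log2 values, so a difference of 1 is a 2-fold change. A gene is said to have risen or fallen where limma gave an adjusted p under 0.05 over all 45037 probe sets, and errors on changes are standard errors with n = 2 Doxo and 4 untreated arrays. The 2 Doxo arrays correlated at 0.991, and the untreated p66KO arrays correlated with each other at 0.972 to 0.997. A Doxo array correlated with an untreated one at 0.895 to 0.957. The spiked-in lys control read 5.60 and 5.50 on the Doxo arrays, against 6.48 and 6.35 on untreated replicates 1 and 2 and 4.39 and 4.99 on untreated replicates 3 and 4. The Doxo arrays of both genotypes thus make a set without untreated arrays of its own, and Doxo and that set cannot be told apart in the response itself. Fibroblast markers were well detected, with 12 of 15 above a level of 6 in untreated cells, among them Vim (mean 12.97), Thy1 (10.64) and Col1a1 (10.82).

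After Doxo, 11966 probe sets rose (26.6% of all tested) and 6369 fell (14.1%). With 1 probe set a gene, there were 5579 genes that rose (32.6%) and 2828 that fell (16.5%). Rises were more numerous and falls were larger: 1358 probe sets rose and 4182 fell by at least 2-fold (3.02% and 9.29% of all tested), and 58 rose and 1660 fell by at least 4-fold. Many rises were small and at low levels. At levels under 3, 3 to 4 and 4 to 5 in untreated WT cells, 16.7%, 27.2% and 33.5% rose, but 0.118%, 0.53% and 1.78% by 2-fold. At 6 to 8, 8 to 10 and 10 or more, 25.5%, 23.2% and 23.5% rose and 35%, 40.4% and 33.6% fell. The 32.6% and 16.5% of all genes, given beside lists below, pool all levels. At the study's own thresholds, an unadjusted p under 0.05 and at least 1.5-fold, 5026 probe sets passed upward and 6111 downward (11.2% and 13.6%). The median change over all probe sets was 0.15, and the calls were 65.3% rises. With each array centred, the median change was 0.01 and 45.5% of 13839 calls were rises, so the share of rises depended on the scaling. Without Doxo replicate 2 the fit called 10833 probe sets, and with untreated replicates 3 and 4 as the only controls it called 8135. In a sample of many cells, fewer cells of a type and less RNA per cell cannot be told apart.

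The strongest rise was that of Ddit4l, a relative of Ddit4 that inhibits mTOR signalling. It read 9.09 and 8.69 on the Doxo arrays, against 4.26, 4.74, 5.53 and 5.36 on the untreated arrays. Both Doxo arrays lay far above all untreated ones, a change of 3.91 ± 0.53 or 15.1-fold (adjusted p = 9.97e-06). Psmb9, a catalytic subunit of the immunoproteasome, read 8.61 and 8.29 after Doxo, against 4.89, 5.27, 5.52 and 5.26 in untreated cells (3.22 ± 0.36, adjusted p = 1.163e-06). All 3 Psmb9 probe sets rose. Lpin1, which makes diacylglycerol from phosphatidate, rose by 2.81 ± 0.45 and Iffo1, an intermediate filament family member, by 2.99 ± 0.25. Acaa1b, a peroxisomal thiolase, and Icam1, an adhesion molecule for leukocytes, rose by 2.68 and 2.55, and their Doxo arrays differed widely, at 6.67 and 4.92 for Acaa1b and 7.69 and 5.82 for Icam1. The other 6 of the 12 largest rises, 1700007K13Rik, Fbrsl1, Def6, Pgpep1, Mab21l3 and Wrap73, had changes of 2.46 to 3.78.

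Ptgs2, the inducible cyclooxygenase that begins prostaglandin synthesis, fell the most. It read 4.34 and 5.00 after Doxo, against 12.38, 11.46, 10.13 and 10.21 in untreated cells, a change of -6.38 ± 0.89 (83.1-fold, adjusted p = 1.282e-05). Among the untreated arrays, replicates 1 and 2 were the higher. Ankrd1, a nuclear ankyrin repeat protein under YAP control, read 3.58 and 4.39 after Doxo, against 10.60, 9.30, 8.82 and 8.75 in untreated cells (-5.38 ± 0.69). Kif5b, a heavy chain of the kinesin-1 motor, fell by 4.62 on the log2 scale with all 5 of its probe sets, and Klf6, a growth-induced zinc finger factor, by 4.62 with all 3. The splicing factor Rbm39 fell with 8 of 9 probe sets (-4.31 ± 0.67). The remaining genes of the 12 largest falls were the miRNA host Mir100hg, the snoRNA host Gas5, the matrix protein Tnc, the hyaluronan synthase Has2, tissue factor F3, Nfkbiz, which directs a subset of NF-kB targets, and Ube2v2, with changes of -4.81 to -4.28. For all 24 genes the groups did not overlap, as the rule that named them required, beside 39.2% of all probe sets with both Doxo arrays above and 18.8% with both below every untreated array.

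**Figure D1:**
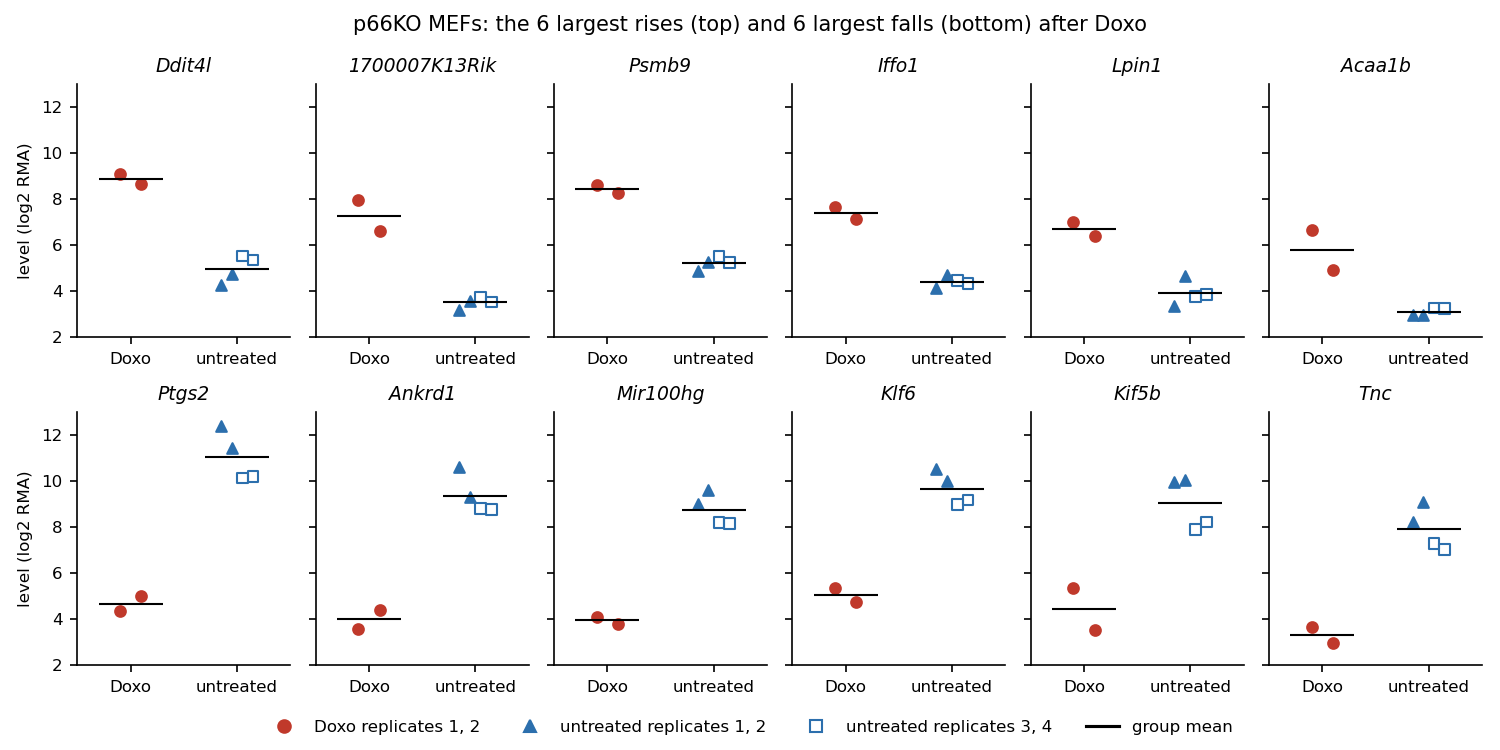
Level (log2 RMA) of the 6 genes with the largest rises (top) and the 6 with the largest falls (bottom) in p66KO MEFs, with each array a point, Doxo left of untreated, and lines at the group means. Ptgs2 lay at 4.34 and 5.00 after Doxo, against 10.13 to 12.38 in untreated cells, where replicates 1 and 2 (triangles) stood above replicates 3 and 4 (open squares).

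Among p53 targets of cycle arrest and feedback, 15 of 34 measured genes rose and 3 fell (44.1% rose, against 32.6% of all genes), with a median change of 0.56 beside 0.21 over all genes. Dcxr, a carbonyl reductase, read 9.88 and 9.04 after Doxo, against 6.54, 7.43, 7.39 and 7.42 in untreated cells (2.27 ± 0.33, adjusted p = 2.292e-05). Rprm, an inhibitor of entry into mitosis, read 8.12 and 7.15 after Doxo, against 5.62, 5.28, 5.56 and 5.94 in untreated cells (2.03 ± 0.26). Gtse1, a microtubule-binding regulator of p53, rose by 1.67 ± 0.26, and Ei24 by 1.37 ± 0.20. The groups were separate for all 4. Cdkn1a, the p21 inhibitor of cyclin-dependent kinases, and Mdm2, the ubiquitin ligase of p53, lay outside the rule for named genes and are given for their roles, with their values known. Cdkn1a read 11.94 and 11.60 after Doxo, against 10.53, 10.52, 10.39 and 10.42 in untreated cells (1.30 ± 0.26, adjusted p = 0.0005907). Mdm2 read 7.99 and 7.89 after Doxo, against 8.98, 8.99, 8.16 and 8.17 in untreated cells and was not called (-0.64 ± 0.36, adjusted p = 0.1583). Both Mdm2 values were under every untreated array, and the untreated arrays fell into pairs. The 3 that fell were the kinase Plk2 (-0.95 ± 0.29), Rrm2b, a ribonucleotide reductase subunit (-1.22 ± 0.47), and Ccng1, a cyclin, at its brightest probe set (-1.05 ± 0.40), 1 of whose other probe sets rose. With untreated replicates 3 and 4 alone, 11 rose and 0 fell.

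Of the 18 measured p53 targets of cell death, 10 rose and 1 fell (55.6% rose and 5.56% fell, against 32.6% and 16.5% of all genes), with a median change of 0.45. Bbc3, which encodes the BH3-only protein Puma, read 8.02 and 7.80 after Doxo, against 6.14, 6.51, 6.21 and 6.56 in untreated cells (1.56 ± 0.29, adjusted p = 0.0002948). Pidd1, a scaffold of caspase-2, rose by 1.45 ± 0.23, Pml, of nuclear bodies, by 1.48 ± 0.26, and Siva1 by 1.32 ± 0.24 with all 4 of its probe sets. Tnfrsf12a, the receptor of the cytokine Tweak, fell (-0.98 ± 0.22). Fas, the death receptor, also outside the naming rule, read 6.69 and 6.38 after Doxo, against 4.37, 5.20, 5.20 and 5.20 in untreated cells (1.54 ± 0.49, adjusted p = 0.01558). Pmaip1, which encodes Noxa, was not called, at 7.31 and 7.65 after Doxo, against 8.94, 9.09, 6.83 and 6.90 in untreated cells, where the 2 pairs of controls lay on either side. With untreated replicates 3 and 4 alone, 5 rose and 1 fell.

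**Figure D2:**
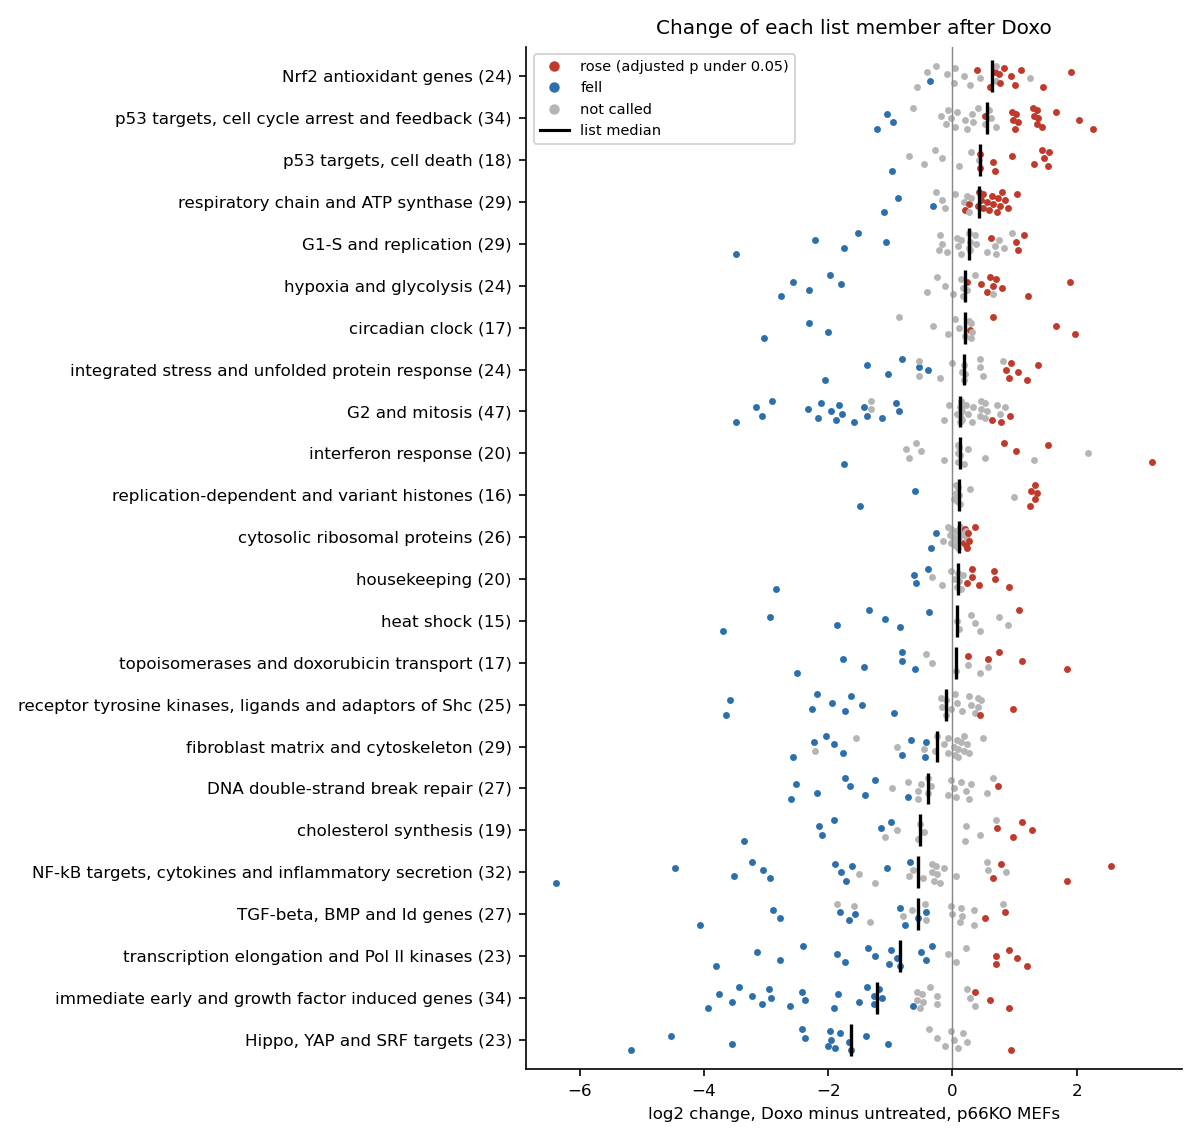
Log2 change of each measured member of 24 gene lists in p66KO MEFs, Doxo minus untreated, with 1 probe set a gene, red for a rise, blue for a fall and grey for no call, a black line at each list median and the number measured in parentheses. Medians ran from 0.64 (Nrf2 antioxidant genes) to -1.63 (Hippo, YAP and SRF targets), and most lists held members that moved both ways.

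In the list of G2 and mitosis genes, 17 of 47 fell and 3 rose (36.2% fell, against 16.5% of all genes), 15 of the falls by at least 2-fold, while 27 were not called. The list's median untreated level was 8.03, and 40.4% of all probe sets between 8 and 10 in untreated WT cells fell. The 36.2% was thus not above the share at that level. The median change of the list was 0.12, and its sign depended on the controls, as given below. The falls included genes of chromosome condensation, spindle assembly and cytokinesis. Bub1, a kinase of the spindle checkpoint, read 4.82 and 4.66 after Doxo, against 7.54, 8.33, 7.54 and 7.80 in untreated cells (-3.07 ± 0.45, adjusted p = 2.588e-05). Ect2, which activates RhoA at the cleavage furrow, read 6.55 and 6.20 after Doxo, against 8.42, 8.63, 8.40 and 8.68 in untreated cells (-2.16 ± 0.30). Anln, the scaffold of the contractile ring, read 8.06 and 7.97 after Doxo, against 9.89, 10.02, 9.67 and 9.77 in untreated cells (-1.82 ± 0.22, adjusted p = 3.171e-06). All 4 untreated arrays stood close together for Ect2 and Anln and well above both Doxo arrays.

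Top2a, the topoisomerase II isoform of dividing cells that Doxo poisons, read 7.94 and 7.45 after Doxo, against 9.05, 9.23, 9.05 and 9.12 in untreated cells (-1.42 ± 0.20, adjusted p = 1.597e-05). The condensin core subunits fell further: Smc2 changed by -3.48 ± 0.66 and Smc4 by -3.17 ± 0.75, both outside the naming rule. Each had 1 probe set that fell, out of 4 for Smc2 and 3 for Smc4. The rises were of Mad1l1, a checkpoint protein (0.93 ± 0.20), Cdc25b, a phosphatase that activates Cdk1 (0.78 ± 0.29), and Stmn1, which destabilises microtubules (0.64 ± 0.22). The kinases that drive mitosis gave no call: Cdk1 read 10.53 and 10.54 after Doxo, against 10.31, 10.16, 11.19 and 11.02 in untreated cells (-0.14 ± 0.31), and Plk1 read 8.64 and 8.74, against 7.61, 8.06, 8.98 and 9.12 (0.25 ± 0.39). Their Doxo arrays lay between the control pairs. With untreated replicates 3 and 4 alone, 16 members fell, 1 rose and the list median was -0.44. With replicates 1 and 2 alone, 17 fell, 12 rose and the median was 0.48, and without untreated replicate 1 it was -0.14, so the sign of the median and the count of rises depended on the controls, and the count of falls did not.

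**Figure D3:**
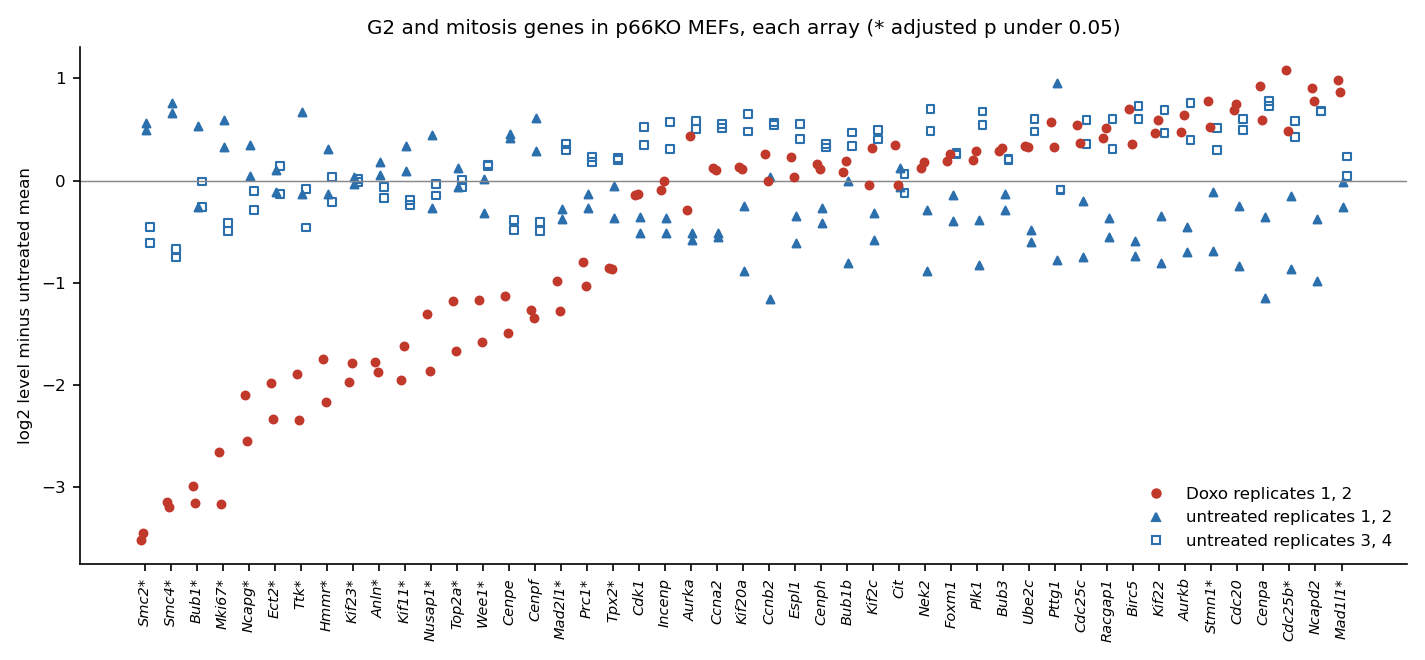
Log2 level of each measured G2 and mitosis gene on each p66KO array, minus the mean of the 4 untreated arrays, ordered by change, with an asterisk at called genes. The mean of the Doxo points (red) ran from 3.48 below the untreated mean at Smc2 to 0.93 above it at Mad1l1, and for most genes in the right-hand part untreated replicates 1 and 2 (triangles) lay below replicates 3 and 4 (open squares).

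The promoters of these genes are shown because many G2 and mitosis genes share 2 elements, the CCAAT box that binds NF-Y and the TTTGAA core of the cell cycle homology region. RefSeq promoters (GRCm38.p6, 250 bases before to 50 after the start) were matched for 37 of the 47 members. Both were searched on both strands, and neither contains the other. The first of them was in 78.4% of these 37 windows, against 37.9% of the 27025 windows of that length for all genes. The second was in 70.3%, against 18.1%, and both together were in 64.9%, against 7.12%. The motifs did not separate members by call: both were in 10 of 14 promoters of genes that fell (71.4%) and in 14 of 21 of genes not called (66.7%), and in 0 of 2 of genes that rose. In the sequences, 5′ to 3′ along the gene, capitals mark either motif on either strand. Top2a (chr11:99024140-99024439, minus strand), Ect2 (chr3:27153829-27154128, minus strand) and Bub1 (chr2:127831810-127832109, minus strand) are from genes that fell, Cdk1 (chr10:69352863-69353162, minus strand) is from a gene not called, and Mad1l1 (chr5:140321503-140321802, minus strand) from one that rose.
Top2a: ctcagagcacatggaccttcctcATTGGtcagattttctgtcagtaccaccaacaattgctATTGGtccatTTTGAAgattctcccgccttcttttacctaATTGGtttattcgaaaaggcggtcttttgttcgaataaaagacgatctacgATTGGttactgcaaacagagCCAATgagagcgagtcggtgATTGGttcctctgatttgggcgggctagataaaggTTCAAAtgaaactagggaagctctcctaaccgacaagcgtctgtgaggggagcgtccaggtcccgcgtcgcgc
Ect2: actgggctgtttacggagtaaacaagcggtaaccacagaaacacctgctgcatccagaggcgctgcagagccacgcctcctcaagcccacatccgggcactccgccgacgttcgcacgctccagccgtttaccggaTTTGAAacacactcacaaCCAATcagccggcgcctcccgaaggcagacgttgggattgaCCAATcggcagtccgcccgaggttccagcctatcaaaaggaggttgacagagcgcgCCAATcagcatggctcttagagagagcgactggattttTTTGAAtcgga
Bub1: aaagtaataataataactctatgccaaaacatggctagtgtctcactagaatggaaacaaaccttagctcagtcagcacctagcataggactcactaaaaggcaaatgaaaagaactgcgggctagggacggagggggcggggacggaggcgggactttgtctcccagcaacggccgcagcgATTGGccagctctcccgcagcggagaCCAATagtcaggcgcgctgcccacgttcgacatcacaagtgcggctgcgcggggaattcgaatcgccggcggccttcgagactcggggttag
Cdk1: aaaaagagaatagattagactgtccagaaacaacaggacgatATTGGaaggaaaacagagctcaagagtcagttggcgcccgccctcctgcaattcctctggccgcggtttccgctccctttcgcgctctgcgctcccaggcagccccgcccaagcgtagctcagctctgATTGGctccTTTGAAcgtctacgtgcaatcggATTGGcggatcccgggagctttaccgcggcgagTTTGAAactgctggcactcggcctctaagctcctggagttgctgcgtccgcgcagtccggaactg
Mad1l1: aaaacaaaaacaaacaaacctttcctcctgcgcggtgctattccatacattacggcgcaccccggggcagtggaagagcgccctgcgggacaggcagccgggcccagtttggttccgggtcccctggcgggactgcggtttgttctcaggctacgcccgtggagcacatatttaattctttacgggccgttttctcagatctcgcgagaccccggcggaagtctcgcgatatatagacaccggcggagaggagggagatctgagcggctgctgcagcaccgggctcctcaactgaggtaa
Top2a and Ect2, which fell, and Cdk1, which was not called, carry both motifs, while Bub1, with the deepest fall of those printed, has CCAAT boxes and no TTTGAA. A match is a description of letters in the window and not a measured site.

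Of 29 genes of G1-S and replication, 5 fell and 4 rose, with a median change of 0.27. The 17.2% that fell were near the 16.5% of all genes, and the 13.8% that rose were under the 32.6% of all genes. E2f3, an activator of S phase genes, read 5.74 and 5.84 after Doxo, against 7.81, 7.55, 7.40 and 7.38 in untreated cells (-1.75 ± 0.16, adjusted p = 1.608e-07). Skp2, the ubiquitin ligase subunit that removes p27, fell by 1.52 on the log2 scale. E2f1 went the other way from E2f3, at 7.72 and 7.78 after Doxo, against 6.62, 6.49, 6.94 and 6.82 in untreated cells (1.03 ± 0.22). Within the Mcm2-7 helicase, Mcm4 fell (-1.07 ± 0.22) while Mcm5 (1.14 ± 0.31) and Mcm7 (1.06 ± 0.31) rose, so subunits of 1 complex moved in opposite directions. With untreated replicates 3 and 4 alone, 1 gene rose, 5 fell and the median was -0.05.

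Of 27 genes of double-strand break repair, 8 fell and 1 rose (29.6% fell and 3.7% rose, against 16.5% and 32.6% of all genes), with a median change of -0.39. Their median untreated level was 5.89. Of all probe sets at 5 to 6 and 6 to 8 in untreated WT cells, 16.7% and 35% fell. Nbn, which brings Atm to breaks, read 4.60 and 4.39 after Doxo, against 7.39, 7.34, 6.55 and 6.81 in untreated cells (-2.53 ± 0.31, adjusted p = 2.938e-06). Chek1, the checkpoint kinase downstream of Atr, read 5.31 and 4.69 after Doxo, against 7.35, 7.27, 6.94 and 7.14 in untreated cells (-2.18 ± 0.33), with 3 of its 5 probe sets called. Brca1, needed for repair by recombination, fell (-1.65 ± 0.29) at 1 of 4 probe sets, and the helicase Blm fell (-1.40 ± 0.24). Xrcc6, the Ku70 subunit that caps broken ends, was the gene that rose (0.73 ± 0.28). The counts depended on the controls and the scaling. With untreated replicates 3 and 4 alone, 5 fell and 0 rose, and with replicates 1 and 2 alone, 11 fell and 4 rose. After further quantile normalization 7 fell and 5 rose, with a median of -0.16.

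Among immediate early and growth factor induced genes, 20 of 34 fell and 3 rose (58.8% fell, against 16.5% of all genes), with a median change of -1.22. Their median untreated level was 8.18, and 40.4% of all probe sets between 8 and 10 in untreated WT cells fell. Myc, the growth-promoting transcription factor, read 6.27 and 6.16 after Doxo, against 9.42, 8.79, 9.09 and 9.27 in untreated cells (-2.92 ± 0.32, adjusted p = 7.976e-07). Ccn2, a matricellular protein, read 8.69 and 9.63 after Doxo, against 12.94, 12.60, 12.62 and 12.66 in untreated cells (-3.55 ± 0.33). Spry2, an inhibitor of receptor tyrosine kinase signalling, read 4.73 and 5.05 after Doxo, against 8.01, 7.99, 8.12 and 8.33 in untreated cells (-3.22 ± 0.46). The untreated arrays stood close together in these 3 genes, and both Doxo arrays were low. Atf3, a stress-induced factor of the same list, rose (0.91 ± 0.33, adjusted p = 0.03145), as did Egr3 (0.60 ± 0.15) and Nr4a3 (0.37 ± 0.12, at 1 of 3 probe sets). Counts with untreated replicates 3 and 4 alone were 18 that fell and 0 that rose.

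The Hippo, YAP and SRF targets had the lowest median of all lists, -1.63, with 14 of 23 that fell and 1 that rose (60.9% fell, against 16.5% of all genes). Their median untreated level was 9.895, and 40.4% of all probe sets between 8 and 10 in untreated WT cells fell. Ccn2 is in this list too. F3, tissue factor, read 5.31 and 5.42 after Doxo, against 11.42, 9.47, 9.10 and 9.59 in untreated cells (-4.53 ± 0.44, adjusted p = 2.957e-07). Lats1, the kinase that restrains YAP, and Tead1, the DNA-binding partner of YAP, fell by 1.97 and 1.89 on the log2 scale, whereas Tead2, a relative of Tead1, rose (0.95 ± 0.27). With untreated replicates 3 and 4 alone, 12 fell.

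NF-kB targets and secreted inflammatory factors were split, with 12 of 32 that fell and 4 that rose (37.5% and 12.5%, against 16.5% and 32.6% of all genes) and a median of -0.55. Their median untreated level was 6.78, and 35% of all probe sets between 6 and 8 in untreated WT cells fell. Besides Ptgs2 and Nfkbiz, Ccl2, a chemokine for monocytes, read 5.35 and 6.11 after Doxo, against 7.41, 9.69, 9.02 and 8.98 in untreated cells (-3.04 ± 0.70, adjusted p = 0.001752). The NF-kB inhibitor Nfkbie read 6.43 and 6.25 after Doxo, against 3.75, 4.77, 4.80 and 4.68 in untreated cells (1.84 ± 0.51), and Nfkb2, the p100 precursor, rose by 0.65 ± 0.19. In the interferon list 4 of 20 rose and 1 fell, shares of 20% and 5% that were under the 32.6% and 16.5% of all genes. Those that rose included Irf1 (1.02 ± 0.34) and Oasl1 (0.83 ± 0.19) beside Psmb9, while Ifit2 fell (-1.74 ± 0.39).

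Genes of transcription elongation moved mostly downward, with 15 of 23 that fell and 5 that rose (65.2% fell, against 16.5% of all genes) and a median of -0.85. Cdk7, the kinase of TFIIH, read 8.66 and 8.68 after Doxo, against 9.67, 9.64, 9.46 and 9.45 in untreated cells (-0.89 ± 0.09, adjusted p = 3.911e-07). Cdc73, a Paf1 complex subunit, read 6.10 and 6.07 after Doxo, against 8.90, 8.75, 8.03 and 8.26 in untreated cells (-2.41 ± 0.29). Tcea1, which restarts stalled polymerase, fell by 1.35 on the log2 scale. Against them, Polr2a, the large subunit of RNA polymerase II, read 9.81 and 9.75 after Doxo, against 8.08, 8.45, 8.97 and 8.85 in untreated cells (1.20 ± 0.19), and Hexim1, an inhibitor of the elongation kinase P-TEFb, rose by 0.91 ± 0.25. The polymerase subunit and the inhibitor thus moved opposite to most of their list, and 3 members were not called.

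Among 24 Nrf2 antioxidant genes 11 rose and 1 fell (45.8% and 4.17%, against 32.6% and 16.5% of all genes), with a median of 0.64. Osgin1 read 6.41 and 6.13 after Doxo, against 4.86, 5.15, 5.50 and 5.52 in untreated cells (1.01 ± 0.19, adjusted p = 0.0003826), and Sod1, which dismutates superoxide, rose by 0.83 ± 0.17. Pgd and Tkt, of the pentose phosphate pathway, rose by 0.77 and 0.68. Txn1, thioredoxin, fell (-0.36 ± 0.08), and Nqo1 and Hmox1, both outside the naming rule, were not called. Subunits of the respiratory chain and ATP synthase rose in 18 of 29 cases (62.1%) and fell in 3 (10.3%), with a median of 0.44: Cox4i1 read 12.46 and 12.40 after Doxo, against 11.71, 11.83, 12.02 and 11.92 in untreated cells (0.56 ± 0.10), and Ndufs1 and Uqcrb fell (-0.87 ± 0.11 and -1.10 ± 0.20). These rises were small and depended on the controls: with untreated replicates 3 and 4 alone, 2 Nrf2 genes and 5 respiratory genes rose, and with arrays centred 6 and 15 rose.

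Chaperones of the heat shock list fell in 7 of 15 cases and rose in 1 (46.7% and 6.67%, against 16.5% and 32.6% of all genes). Their median untreated level was 9.995. Of all probe sets at 8 to 10 and at 10 or more in untreated WT cells, 40.4% and 33.6% fell. The median change of the list was 0.08, and -0.06 with arrays centred. Hsp90aa1, the inducible Hsp90, read 6.43 and 7.15 after Doxo, against 11.53, 11.05, 9.58 and 9.81 in untreated cells (-3.70 ± 0.60, adjusted p = 7.234e-05), and Chordc1, an Hsp90 partner, fell by 2.94 on the log2 scale. In the integrated stress and unfolded protein list 6 of 24 rose and 6 fell (25% each), with Sesn2 higher (1.37 ± 0.23) and the reticulum chaperones Hspa5 (-1.04 ± 0.17) and Hsp90b1 (-2.05 ± 0.31) lower. In the hypoxia and glycolysis list 9 of 24 rose and 5 fell, and these 37.5% and 20.8% were near the shares of all genes. Hif1a, the oxygen-regulated subunit, read 7.93 and 7.75 after Doxo, against 10.61, 10.97, 10.00 and 10.03 in untreated cells (-2.56 ± 0.31). The clock list had 4 of 17 that rose (23.5%), with Dbp (1.97 ± 0.46) and Tef (1.66 ± 0.19), and 3 that fell (17.6%), with Clock (-3.03 ± 0.71).

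Among 17 genes of topoisomerases and Doxo transport, 6 fell and 5 rose (35.3% and 29.4%, against 16.5% and 32.6% of all genes). Beside Top2a, Tdp2, which frees topoisomerase II from DNA ends, read 5.60 and 5.99 after Doxo, against 7.78, 7.93, 7.17 and 7.34 in untreated cells (-1.76 ± 0.27, adjusted p = 4.06e-05). The carbonyl reductases Cbr1 and Cbr3, enzymes known to reduce anthracyclines, rose by 1.13 ± 0.21 and 1.84 ± 0.32. In the list of receptor tyrosine kinases, their ligands and Shc adaptors, 9 of 25 fell and 2 rose (36% and 8%). The median untreated levels of these lists were 6.78 and 6.76. At levels between 6 and 8 in untreated WT cells, 35% of all probe sets fell, near the shares of both lists. Hbegf, an Egfr ligand, read 7.01 and 6.99 after Doxo, against 11.49, 10.33, 10.39 and 10.14 in untreated cells (-3.59 ± 0.60). The adaptor Irs1 fell (-2.18 ± 0.34), Egfr had 3 probe sets that rose and 2 that fell of 6, and the Shc1 relatives Shc2 and Shc3 rose by 0.98 and 0.45. Shc1 itself had changes of 0.53 ± 0.24 and 0.36 ± 0.16 at its 2 probe sets, with neither called (adjusted p = 0.07344 and 0.08156). These probe sets read 3′ sequence that all Shc1 isoforms share, so they do not check the p66 deletion.

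The other lists are given beside the 32.6% of all genes that rose and the 16.5% that fell. The TGF-beta, cholesterol and matrix lists had median untreated levels of 8.37, 7.61 and 11.09. Of all probe sets at 8 to 10, 6 to 8 and 10 or more in untreated WT cells, 40.4%, 35% and 33.6% fell. The shares of these lists that fell, given next, were not above those. In TGF-beta, BMP and Id genes 10 of 27 fell (37%) and 2 rose (7.41%), with Skil, a Smad repressor, at -2.89 ± 0.56 and Bmpr1a at 0.85 ± 0.12. In matrix and cytoskeleton 9 of 29 fell (31%) and 0 rose, led by Itgb1 (-1.76 ± 0.30), Itga5 (-1.91 ± 0.33), Lox (-2.03 ± 0.40) and Postn (-2.57 ± 0.53). In cholesterol synthesis 6 of 19 fell (31.6%) and 4 rose (21.1%), with Idi1 at -3.35 ± 0.51 and Ebp at 1.28 ± 0.24. Histones gave 5 of 16 that rose (31.2%) and 2 that fell (12.5%), with Slbp, which binds histone mRNA, at -1.49 ± 0.21. Ribosomal proteins moved little, from -0.34 to 0.37, with 7 of 26 that rose (26.9%) and 2 that fell (7.69%), and 0 that rose and 5 that fell where arrays were centred. Of 20 housekeeping genes, 7 rose and 4 fell, and these 35% and 20% were near the shares of all genes. After centring 4 rose and 6 fell.

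Falls were commonest in genes of long transcription units. The 17055 genes with a length were split into 5 bins of equal size with medians of 3.32, 9.87, 20.1, 40.7 and 118 kb, and among genes at a level of 6 or more in untreated WT cells the median change was 0.56, 0.41, 0.13, -0.28 and -0.76 in that order. In these bins 47.9%, 41.9%, 30.4%, 18.3% and 10.7% of genes rose, and 12.5%, 20.9%, 29%, 44.1% and 54.6% fell. Both Doxo arrays showed the same slope: the median of the longest bin minus that of the shortest, each array set against the untreated WT mean, was -1.23 and -1.24 on the Doxo arrays, against 0.29, 0.34, -0.22 and -0.18 on the untreated p66KO arrays. The untreated arrays thus differed by array pair in the same measure, with a far smaller size, and the values are descriptions across genes, which are not independent replicates. The genes that rose had a median length of 13.6 kb, those that fell 40.9 kb, and those not called 20.8 kb. The lists differed: G2 and mitosis genes that fell had a median of 31.7 kb, against 14.7 kb for members not called, whereas the immediate early genes that fell were short, at 4.76 kb. Break repair genes were long, with medians of 71.7 kb for members that fell and 50.1 kb for those not called. Kif5b spans 40.5 kb and Ptgs2 8.2 kb. The shortest and longest bins had medians of 0.56 and -0.76 after Doxo in p66KO MEFs, 0.49 and -0.71 after Doxo in WT MEFs, and -0.03 and 0.02 after H2O2 in p66KO MEFs. Falls also went with level, from 0.655% of probe sets under a level of 3 in untreated WT cells to 40.4% of those between 8 and 10, and the part of level in the relation to length was not tested beyond the limit to a level of 6.

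**Figure D4:**
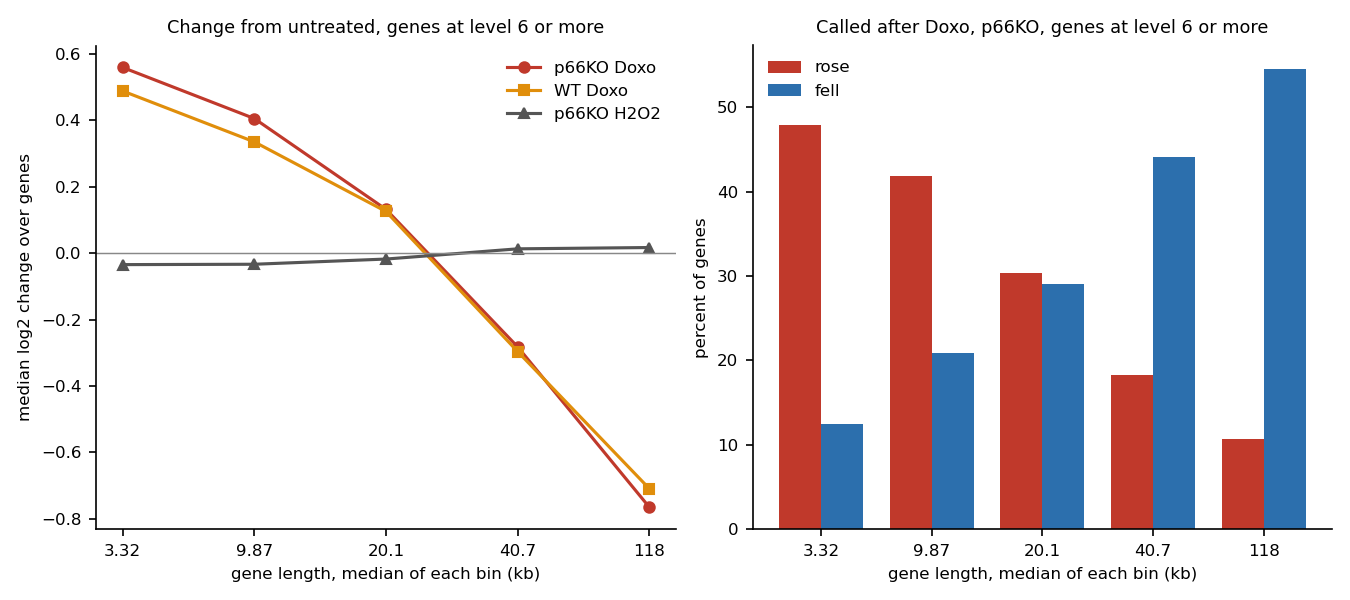
Left, median log2 change from untreated cells in 5 bins of gene length (labelled by their median, in kb), for genes at a level of 6 or more, after Doxo in p66KO and WT MEFs and after H2O2 in p66KO MEFs. Right, the percent of those genes that rose and fell after Doxo in p66KO MEFs, from 12.5% that fell in the shortest to 54.6% in the longest bin.

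The Doxo response was not detectably different between p66KO and WT MEFs. In WT cells 9875 probe sets rose and 5877 fell (21.9% and 13%). Of the difference of the responses, p66KO minus WT, 0 probe sets had an adjusted p under 0.05 by limma, the lowest being 0.277, with 1077 at an unadjusted p under 0.05 (2.39%) and 59 at the study's thresholds (0.131%). The arrays allow only a wide bound on 1 gene: the 95% interval of a difference reached a median of 0.44 to either side. The median absolute difference was 0.12, the largest 1.97, and 54 probe sets differed by at least 2-fold. Both genotypes were read on Doxo arrays of 1 set, so an added effect of that set cancels in this difference.

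Side by side, the changes after Doxo were 3.91 in p66KO and 3.55 in WT MEFs for Ddit4l, 1.30 and 1.51 for Cdkn1a, -3.07 and -3.62 for Bub1, -1.42 and -1.67 for Top2a, -2.92 and -2.75 for Myc, and -6.38 and -5.21 for Ptgs2. The interval of the difference was -1.19 to 1.93 for Ddit4l and -3.76 to 1.43 for Ptgs2, and for no list member was the adjusted p of the difference below 1. By list, rises and falls in p66KO and in WT cells were 15 and 3 against 15 and 2 for p53 arrest targets, 3 and 17 against 1 and 19 for G2 and mitosis, 1 and 8 against 2 and 12 for break repair, 20 against 17 falls for immediate early genes and 14 against 13 falls for YAP and SRF targets. The 5 genes with the lowest p missed the threshold. Extl3, a heparan sulfate synthesis enzyme, had a response of -0.14 in p66KO and 0.54 in WT MEFs, a difference of -0.68 (95% interval -0.92 to -0.44, adjusted p = 0.277). Kcnq3, Atrn, Sh3rf2 and Nppc differed by 0.49, 0.66, 0.61 and 0.46, each with an adjusted p of 1, at levels under 5 on all p66KO and WT Doxo arrays. Setting p66KO Doxo arrays directly against WT Doxo arrays also gave 0 calls (1570 or 3.49% at an unadjusted p under 0.05, lowest adjusted p 0.118).

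**Figure D5:**
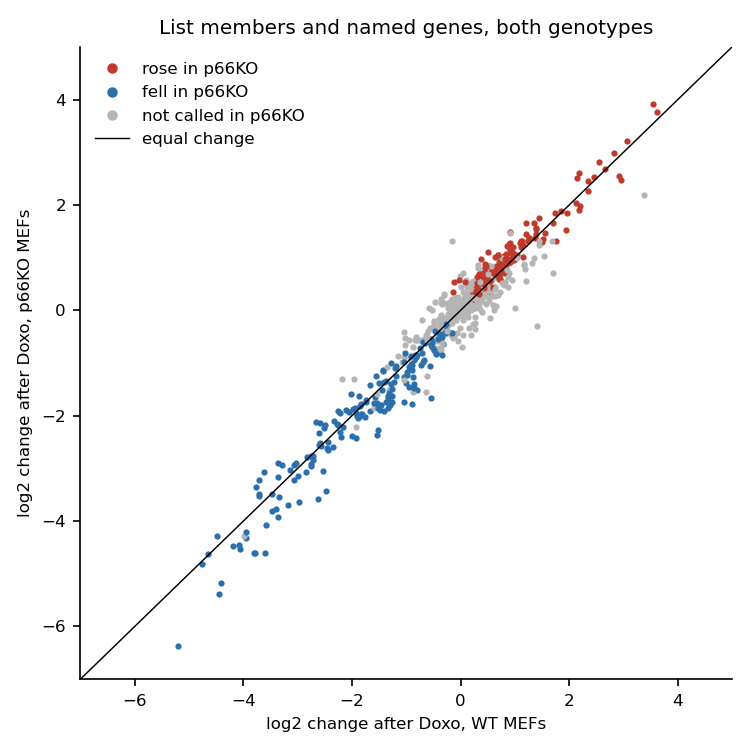
Log2 change after Doxo in p66KO MEFs (vertical) and WT MEFs (horizontal) for 691 probe sets of list members and named genes, coloured by the call in p66KO cells, with the line of equal change. Ptgs2 was at -6.38 in p66KO and -5.21 in WT MEFs, and no probe set passed the test of the difference.

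Few probe sets were called in the same cells given H2O2. Against untreated p66KO MEFs, 8 probe sets rose and 0 fell after H2O2 (0.0178% and 0%, with 1988 or 4.41% at an unadjusted p under 0.05). The Doxo and H2O2 responses share their untreated arrays, so the treatments were compared directly, and 13711 probe sets were higher and 6887 lower after Doxo than after H2O2 (30.4% and 15.3%). Ddit4l read 9.09 and 8.69 after Doxo, against 5.35, 6.61, 6.56 and 6.90 after H2O2, a difference of 2.54 (adjusted p = 0.0007663). Kif5b read 5.34 and 3.51 after Doxo, against 10.12, 10.14, 8.87 and 8.87 after H2O2 (-5.07), and Rock1, a kinase of actomyosin contraction, 3.78 and 3.96, against 9.57, 9.60, 7.42 and 7.18 (-4.58, adjusted p = 0.005182). These genes were named for large changes, so their lack of overlap between the treatments adds nothing to the calls. The share of all probe sets without such overlap was not taken. Cdkn1a differed by 0.50 and was not called (adjusted p = 0.1186). H2O2 and Doxo differed in array set as in treatment. Without Doxo replicate 2 this comparison called 12486 probe sets, against 20598 with all arrays.

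Markers of other cell types were given a check on sample makeup. Of 15 fibroblast markers 0 rose and 4 fell (26.7%, against 16.5% of all genes), Prrx1, Col1a2, Fap and Col3a1. The median untreated level of these markers was 8.44, and 40.4% of all probe sets between 8 and 10 in untreated WT cells fell. The 26.7% was thus not above the share at that level. Among other lists, macrophage and leukocyte markers had 3 of 13 that rose and 1 that fell (23.1% rose, under the 32.6% of all genes). Their summed level, not on the log scale, was 3050 to 3629 on Doxo arrays, against 1618 to 3119 on untreated arrays. Their median change was 0.62, and 8 of the 13 had both Doxo arrays above every untreated array, beside 45.3% of all genes. Cd3e, Laptm5 and Csf1r rose (0.37, 1.10 and 0.92), and Ptprc was the 1 that fell (-1.47). Epithelial markers had a median change of 0.67, with sums of 937 to 942 after Doxo, against 326 to 663 in untreated cells. They rose in 3 of 10 cases, Cldn3, Krt14 and Epcam (30%, near the 32.6% of all genes). Muscle markers rose in 5 of 12 (41.7%, against 32.6% of all genes), with sums of 527 to 903, against 256 to 397. Erythroid markers rose in 4 of 7 (57.1%, against 32.6% of all genes), with sums of 203 to 219, against 165 to 181. Both lists read low, with mean untreated levels of 2.39 to 6.22 for muscle and 3.16 to 5.61 for erythroid markers. With arrays centred, 2 muscle and 0 erythroid markers rose. Endothelial markers had 1 rise and 1 fall of 10 (318 to 364, against 352 to 698), neural markers 0 of 8 (410 to 572, against 213 to 340) and adipocyte and chondrocyte markers 1 rise of 11 (531 to 697, against 438 to 834). Mean levels of single markers in untreated cells ran from 2.8 to 7.17 in the epithelial list and from 2.91 to 8.05 in the endothelial list. The share of these sums in the other results was not tested.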

How the data were processed

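Total RNA of MEFs was labelled from its 3′ ends and hybridised to 1-colour Affymetrix MOE430PM arrays. The deposited table holds log2 expression values, which the authors made with RMA in Partek 6.5. RMA gives all arrays nearly the same distribution, so levels are relative within an array, and 2 Doxo arrays bound the precision. Of 45141 rows, 104 array controls were left out. Gene symbols came from the platform annotation, where 28898 probe sets had 1 symbol, 551 several and 15588 none, and gene lengths and promoters came from RefSeq (GRCm38.p6).

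A mean for each of the 8 groups was fitted over all 28 arrays with limma 3.58.1 in R 4.3.3, with moderated errors and Benjamini-Hochberg adjustment over 45037 probe sets. Groups were taken from the titles. Difference terms compared p66KO with WT cells and Doxo with H2O2. An exact permutation of 2 against 4 arrays cannot go below p = 0.0667 and was not used. A gene in a list was read at its probe set with the highest mean over the 28 arrays. Named genes were the 12 largest rises and falls with separate groups, up to 4 called members a list with the lowest adjusted p, up to 3 that moved against their majority, the 6 largest differences each way from H2O2, and the 5 lowest p of the genotype difference. The members and lists were chosen with earlier results of these data known. Alternatives were array centring, further quantile normalization, a filter on the lowest 40% of probe sets, robust and unmoderated fits, other references, 1 probe set a gene, the replicate number as a block and leaving out each array. The fit of the Doxo response was tested on simulated arrays with independent noise and no effect of array set. The other steps were not tested in this way. Genes whose probe sets carry no single symbol here were not analysed.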

Additional observations from a re-analysis of the deposited data

Results flagged for a closer look

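Among 177 named probe sets, 6 (3.39%) had 1 untreated p66KO array far from the other 3, as measured by its gap to the nearest array over the range of the group. A share of about 0.05 is what this measure gives by chance, so these are no more than chance gives. In Dcxr, which rose after Doxo, the ratio was 0.957, with untreated replicate 1 at 6.54 and the others at 7.39 to 7.43. In Nfkbie, which also rose, it was 0.889, with replicate 1 at 3.75 and the others at 4.68 to 4.80. Both low arrays lie farther from the Doxo arrays than the others do. In Tef it was 0.948, with replicate 2 at 7.04 and the others at 7.54 to 7.57. In Col1a2 it was 0.859, with replicate 2 at 7.03 and the others at 4.87 to 5.18, in Krt14 0.846, with replicate 2 at 3.05 and the others at 3.38 to 3.44, and in Stmn2, which was not called, 0.955, with replicate 1 at 4.51 and the others at 6.40 to 6.49.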

How the results depend on the processing

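No named probe set changed sign under the alternatives in which it was read. These were array centring, quantile normalization, the replicate block, either pair of controls alone, and leaving out each p66KO Doxo or untreated array. Named probe sets were not read with untreated WT arrays as the reference. With untreated replicates 3 and 4 as the only reference the Doxo response had 8135 calls against 18335, and 44 of the 177 named probe sets lost their call, beside 5 with replicates 1 and 2 alone. Leaving out 1 array at a time gave 10833 to 18829 calls for the Doxo response, 9892 to 12138 at the study's thresholds, 0 to 2 for the difference between genotypes, 0 to 4 for p66KO Doxo against WT Doxo and 12486 to 20577 for Doxo against H2O2, where the 10833, the 12486, the 2 and the 4 calls were without Doxo replicate 2 and the 9892 without untreated replicate 2. For the Doxo response, the compared arrays alone gave 13059 calls, against 18335. For p66KO Doxo against WT Doxo, the compared arrays alone gave 4 calls, centring 1 and the unmoderated test 2, against 0. With 1 probe set a gene, fewer features were tested and the calls were 8407 (Doxo response), 5573 (study's thresholds) and 9172 (against H2O2). Adding a fold of 1.5 or 2 to the adjusted p left 10337 and 5540. The change by gene length, the median of the longest minus that of the shortest bin over all levels, was -0.31, and -0.69 without the lowest 40% of probe sets, -0.29 after quantile normalization, and, in 2 settings chosen after seeing the data, -0.37 with untreated replicates 1 and 2 alone and -0.27 with 3 and 4 alone. List medians near 0 changed sign: those of receptor tyrosine kinases and Shc adaptors (0.063 after quantile normalization and 0.032 with replicates 1 and 2 alone, against -0.096), ribosomal proteins (-0.031), housekeeping genes (-0.043) and endothelial markers (-0.00681), the last 3 after centring. Centring also turned the small positive medians of G2 and mitosis, interferon, histone, topoisomerase, heat shock, neural and adipocyte lists negative (-0.13 to -0.0087), and untreated replicates 3 and 4 alone turned those of G2 and mitosis (-0.44), G1-S (-0.05), topoisomerase, heat shock and adipocyte lists. Other such turns were of the topoisomerase list after quantile normalization and of the G2 and mitosis, topoisomerase, heat shock and adipocyte lists without 1 array. The causes were not tested.

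The replicate numbers do not pair the samples: deviations of same-numbered p66KO arrays correlated at -0.07 and -0.08. With the replicate block the calls were 25023 for the Doxo response, 14312 at the study's thresholds, 26671 against H2O2, and 0 for the difference between genotypes and for p66KO Doxo against WT Doxo.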
